A study of Mus musculus with 2 samples.

Results

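Natural killer (NK) cells of the mouse spleen were studied in 2 droplet single-cell RNA libraries, and 361 of 20990 kept barcodes met the definition. The cells were selected on 9 genes. A barcode had to hold at least 1000 unique molecular identifiers (UMIs, 1 per captured RNA molecule), at most 10% of them mitochondrial, and at least 2 UMIs of Ncr1, Klrb1c, Klra4, Klra8 and Klre1 together. It could hold no UMI of Cd3d, Cd3e, Cd3g (T cell receptor chains) or Cd79a (a B cell receptor chain). This left 138 NK cells of 9792 kept barcodes in the ALLO library and 223 of 11198 in the SYN library.

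Both libraries came from spleens of wild-type C57BL/6 mice, with 1 library per group. The donors of ALLO skin were C57BL/6-Tg(HLAA2.1)1Enge/J mice, whose cells bear the human HLA-A2.1 transgene, with grafts placed at weeks 0 and 5. SYN recipients had wild-type C57BL/6 skin grafted by an identical schedule, so surgery, tail skin and Zoletil and Rompun anaesthesia were common to both groups. Spleens were taken 4 weeks after the second graft, and the splenocytes were frozen, thawed and passed over a dead-cell removal column before 5′ capture. The labels give neither age nor sex, nor the number of mice behind each library. No difference between ALLO and SYN could be tested, since each group is a single library and its cells are not replicates. All intervals are exact 95% intervals and cover counting error only.

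NK cells are innate lymphocytes that kill target cells and release cytokines without a rearranged antigen receptor. Each cell weighs signals from activating receptors, which act through adaptors such as DAP12 (Tyrobp), against inhibitory receptors that bind MHC class I on healthy cells. In mice these receptors include the Ly49 family (Klra genes), of which Klra4 (Ly49D) and Klra8 (Ly49H) are activating, and NKG2A (Klrc1) paired with CD94 (Klrd1). Splenic NK cells mature from a CD27+ stage to a CD11b+ stage (CD11b is encoded by Itgam), gaining killing capacity and late markers such as Klrg1, Zeb2 and S1pr5.

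The 5 genes that defined the gate lie in the natural killer gene complex on chromosome 6 (Klrb1c, Klre1, Klra4, Klra8) or in the leukocyte receptor complex on chromosome 7 (Ncr1). Their start regions, 250 bases before to 50 bases after the transcription start, were read from RefSeq on GRCm38.p6. The region of Ncr1 (chr7:4337474-4337773, plus strand) is shown because it held the most matches among the 5 to the RUNX motif TGTGGT, at -185 and -50 from the start. Those of Klra4 (chr6:130067222-130067521) and Klra8 (chr6:130129849-130130148), both on the minus strand, are shown because they are the closest pair of activating receptors and their transcripts were often found in the same cells. Each is written 5′ to 3′ on the gene's strand, with capitals for the RUNX motif on either strand.
Ncr1: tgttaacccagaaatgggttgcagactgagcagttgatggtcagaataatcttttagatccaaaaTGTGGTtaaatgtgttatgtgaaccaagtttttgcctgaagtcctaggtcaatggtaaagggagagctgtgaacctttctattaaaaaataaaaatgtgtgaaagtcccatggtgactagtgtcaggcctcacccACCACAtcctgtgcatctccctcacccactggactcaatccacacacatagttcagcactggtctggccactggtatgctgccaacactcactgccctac
Klra4: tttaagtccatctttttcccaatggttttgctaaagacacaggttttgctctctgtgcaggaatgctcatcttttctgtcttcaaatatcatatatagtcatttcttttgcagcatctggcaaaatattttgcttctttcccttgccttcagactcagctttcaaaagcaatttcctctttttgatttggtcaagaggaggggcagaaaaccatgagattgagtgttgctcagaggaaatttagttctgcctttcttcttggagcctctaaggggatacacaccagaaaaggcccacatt
Klra8: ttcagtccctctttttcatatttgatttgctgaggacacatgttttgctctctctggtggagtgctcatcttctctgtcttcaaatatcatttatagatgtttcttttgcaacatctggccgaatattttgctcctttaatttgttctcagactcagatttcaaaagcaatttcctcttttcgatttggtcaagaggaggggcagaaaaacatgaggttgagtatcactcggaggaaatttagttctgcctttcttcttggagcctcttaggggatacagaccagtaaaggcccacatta
The Klra4 and Klra8 regions were identical at 86.0% of aligned positions, and Klra3 and Klra9 at 85.0%. The other 19 pairs among 7 Ly49 genes lay between 44.0% and 62.6%. TGTGGT occurred once each in the regions of Klrb1c (-89) and Klre1 (-229) and in 16.8% of 32851 mouse start regions of the same length. The T-box motif AGGTGT was in none of the 5 and in 13.7% of all regions. These are letter matches in 1 window, not measured binding, and the Klre1 window does not begin an annotated GENCODE transcript.

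Depth was close between the NK cells of the libraries. The ALLO library held 11185 barcodes with a median of 3113 UMIs and the SYN library 17777 with a median of 2036. NK cells held between 1021 and 9303 UMIs in ALLO (median 2909.5) and between 1008 and 6498 in SYN (median 2992), with a median of 1459 and 1471 genes. Of 335 ALLO and 478 SYN barcodes with at least 2 UMIs of the NK genes, 146 and 183 were removed for a Cd3 UMI, and 115 and 143 of those also held a T cell receptor constant transcript. A further 51 and 72 were removed for Cd79a. The libraries shared 264 barcode sequences, which 1 ALLO and 4 SYN NK cells carried.

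The 5 selecting genes were found at similar levels in both libraries. Levels are given in CPM, the UMIs of a gene per 1000000 UMIs of the cells named, and are not scaled by transcript length. Ncr1, which encodes the activating receptor NKp46, was at 1441 (ALLO) and 1376 CPM (SYN) (617 and 937 UMIs), and Klrb1c (NK1.1) at 1065 and 1151. Klre1, a lectin-like receptor, was at 836 and 899 CPM. Klra4 was at 839 CPM (359 UMIs) in ALLO and 999.96 CPM (681 UMIs) in SYN, or 0.839 times the SYN level (0.736 to 0.954). Klra8 was at 1098 and 1292 CPM, a ratio of 0.850 (0.758 to 0.951). Because the gate chose cells on these genes, the values describe the selection and test nothing.

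Genes outside the gate went with the label. Tyrobp was found in 94.1% of NK cells in ALLO and 93.3% in SYN after each cell was thinned to 1000 UMIs, against 0.543% and 0.724% of T cells. Markers of other cells were uneven. Trac was found in 0.725% and 0.897% of NK cells as sequenced, against 57.1% and 55.4% of T cells. Cd79b was found in 5.80% of ALLO and 2.24% of SYN NK cells, below its 9.81% and 8.69% of T cells, which should lack it. The median depth of those T cells was 4214 and 4071 UMIs. Of the other T cell markers, Cd4 and Themis had no UMI in NK cells, while Trbc1 was at 100.4 and 83.7 CPM against 145 and 125 in T cells, Trbc2 at 88.8 and 91.0 against 328 and 356, and Thy1 at 131 and 151 against 692 and 694. The summed T cell markers reached 439 and 471 CPM in NK cells against 3781 and 3909.9 in T cells, and 15 B cell markers 631 and 774 CPM against 47429.8 and 47616 in B cells. Monocyte and macrophage markers summed to 210.2 and 235 CPM against 126 and 133 in T cells, and plasma cell markers to 159 and 119 against 42.6 and 52.5. Neutrophil, dendritic, platelet and haemoglobin lists summed to between 1 and 8 UMIs per library, and 6 basophil and mast cell genes were at 0.

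**Figure D1:**
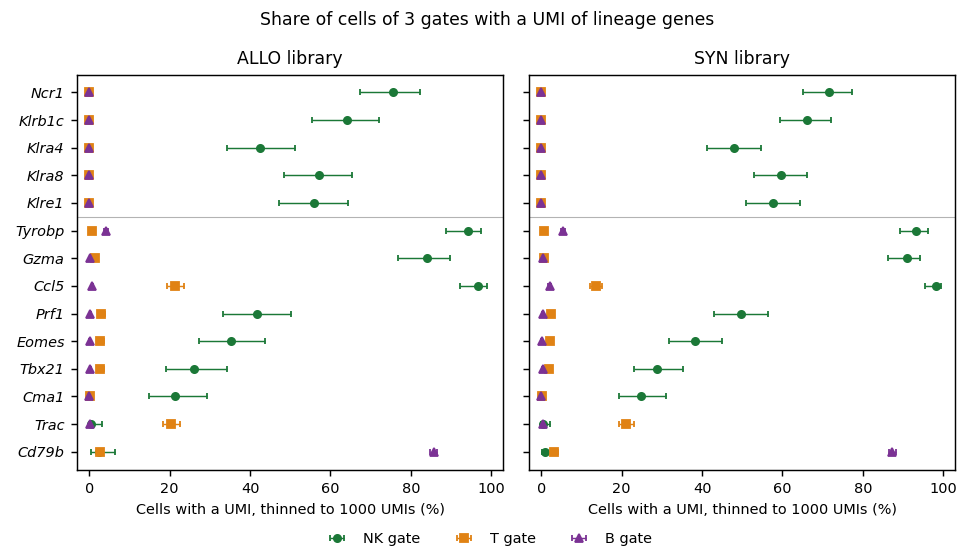
Share of cells with at least 1 UMI of each gene (x axis, percent) after thinning to 1000 UMIs, for the NK, T and B gates in each library. Bars are 95% binomial intervals, approximate because they rest on expected cell counts. The genes above the grey line chose the NK cells; below it, Tyrobp, Gzma and Ccl5 were found in at least 84.0% of NK cells in both libraries, and Trac and Cd79b in at most 2.30%.

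T cells, chosen by at least 2 Cd3 UMIs with no UMI of the NK genes and none of Cd79a (1509 in ALLO, 2071 in SYN), were the nearest comparison. As the gates were built to separate these cells, the contrast is a description. Of 9978 genes with at least 20 UMIs, 1824 (18.3%) were at least 1.5-fold higher in NK cells in both libraries and 902 (9.04%) at least 1.5-fold lower. The median gene stood 0.23 (ALLO) and 0.24 (SYN) higher on the log2 scale in NK cells, and scaling to that median turned the counts into 1080 higher and 1304 lower. Ribosomal protein genes took 16.1% and 16.3% of UMIs in the median NK cell against 34.6% and 35.0% in the median T cell.

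Several receptor adaptors were higher in NK than in T cells. Tyrobp was at 4135 CPM in NK cells of ALLO and 4154 in those of SYN, against 7.30 and 13.2 in T cells. Fcer1g, the Fc receptor gamma chain, was at 2899 and 2985 CPM against 13.7 and 15.1. The kinase Syk (91.1 and 110.1 against 4.53 and 5.604 CPM) and the phospholipase Plcg2 (107 and 67.5 against 3.80 and 3.09) were likewise on the NK side. Their T cell counterparts were not: the adaptor Lat was at 126 and 96.9 CPM against 569 and 642, and Plcg1 at 2.34 and 2.94 against 88.5 and 87.1. In all, 8 of 17 measured adaptor and kinase genes were past 1.5-fold higher and 2 lower.

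Killing genes were on the NK side for 14 of 20 measured members and on the T side for none. Gzma (granzyme A) was at 10117 CPM in NK cells of ALLO and 10077 in those of SYN against 57.4 and 19.3 in T cells. T cells with Cd8 transcripts and no Cd4 held 118 and 52.5 CPM. Prf1 (perforin, which opens the target membrane) was at 624 and 772 CPM against 29.9 and 25.8. Gzmb was at 498 and 380 against 9.05 and 4.46. Cma1, which encodes a chymase, led the genes higher in NK cells, with 118 and 217 UMIs in NK cells and 1 UMI in the T cells of each library, while the basophil and mast cell list was at 0. Gzmm, a further granzyme, stayed within 1.5-fold in ALLO (1.30) and passed it in SYN (1.74).

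Lineage factors divided between the cell types. Of 20 measured, 10 were higher in NK cells, led by Irf8 (276 and 261 CPM against 10.95 and 13.5) and including Tbx21 (299 and 352 against 32.7 and 20.9) and Eomes (460 and 498 against 33.6 and 31.6), the paired T-box factors of NK development. Tcf7, Foxo1, Bach2, Id3 and Ikzf2 were lower, with Tcf7 at 124 and 151 CPM against 499.8 and 621. Among chemokines, Ccl5 was at 15219 and 16748 CPM against 1771 and 829, and Ccl3 at 526 and 427 against 4.23 and 1.49. Among adhesion genes, Itgax (CD11c) was at 208 and 204 CPM against 2.48 and 1.03, and Itga2 (CD49b) at 154 and 197 against 3.505 and 3.55. On the T side, Dapl1 and Cd4 had no UMI in any NK cell, against 1657 and 2136 UMIs and 1236 and 1648 UMIs in T cells. With 3 counts as the floor per library, their ratios were 0.0290 and 0.0388 in ALLO and 0.0180 and 0.0234 in SYN. The upper limits of their intervals were 0.0357 and 0.0478 in ALLO and 0.0222 and 0.0288 in SYN.

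NK cells made up a smaller share of kept barcodes in ALLO than in SYN, but the size of that gap moved with the depth limit. They were 1.41% (1.19 to 1.66) of kept barcodes in ALLO and 1.99% (1.74 to 2.27) in SYN, which gives a ratio of 0.708 (0.568 to 0.879). With barcodes from 500 UMIs included, the ratio was 0.995 (0.821 to 1.20), and with at least 2000 UMIs it was 0.619. Among T plus NK barcodes, NK cells were 8.38% (7.09 to 9.82) in ALLO and 9.72% (8.54 to 11.01) in SYN. The ratio was 0.862 (0.692 to 1.07), an interval that spans 1. SYN held more shallow barcodes, with 6271 from 500 to below 1000 UMIs against 958 in ALLO.

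Maturation was scored in each cell as the UMIs of the late genes Itgam, Klrg1, Zeb2 and S1pr5 minus those of the early genes Cd27, Emb and Ltb. Most cells leaned late in both libraries. As the expectation over all thinnings to 1000 UMIs, 55.0% (46.3 to 63.5) of ALLO and 59.6% (52.9 to 66.1) of SYN NK cells leaned late, a ratio of 0.922 (0.686 to 1.23). Early-leaning cells were 17.2% (11.3 to 24.5) and 14.8% (10.4 to 20.2), a ratio of 1.16 (0.654 to 2.02). The remaining 27.8% and 25.6% were ties. Both intervals span 1, and cells 1 UMI from the tie made up 35.5% and 33.1%. With 1 library per group, a difference in maturation between the libraries could not be tested. Without thinning, 68.1% and 74.4% leaned late and 22.5% and 19.7% early. At a difference of at least 2 UMIs, also without thinning, 59.4% of ALLO and 59.2% of SYN cells were late. Early cells were then 20.3% (13.9 to 28.0) in ALLO and 12.6% (8.51 to 17.6) in SYN.

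**Figure D2:**
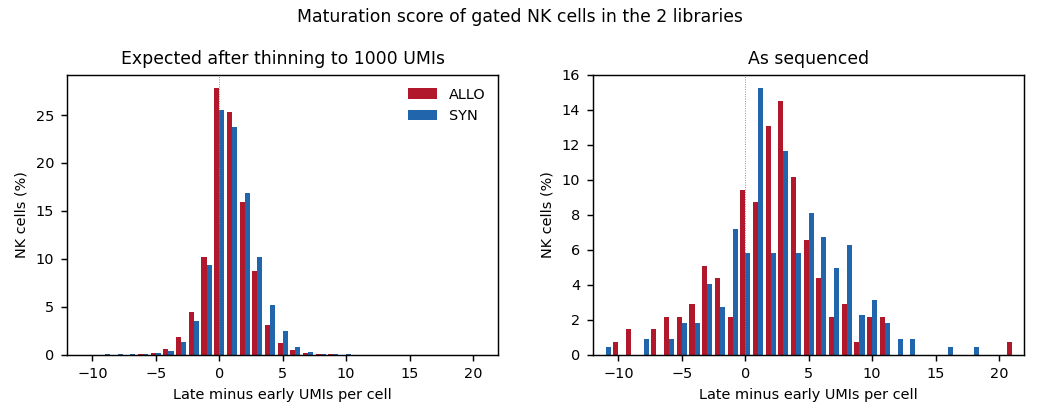
Distribution of the maturation score, late minus early UMIs per cell (x axis), as a percentage of the 138 ALLO and 223 SYN NK cells, left as the expectation after thinning to 1000 UMIs and right as sequenced. After thinning both libraries peak at a score of 0, and late-leaning cells are 55.0% in ALLO and 59.6% in SYN.

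The genes of the score moved unevenly between the libraries. Itgam had 69 UMIs in ALLO and 199 in SYN, 161 against 292 CPM, a ratio of 0.552 (0.413 to 0.729). S1pr5, a sphingosine receptor for exit from lymphoid tissue, was at 355 and 445 CPM, a ratio of 0.798 (0.652 to 0.973). In T cells, with 56 and 14 UMIs, the ratio of S1pr5 was on the other side of 1, at 5.11 (2.81 to 9.94). In B cells, with 6 and 15 UMIs, it was 0.354 (0.112 to 0.965). The ratios of Zeb2 (0.838, 0.687 to 1.02) and Klrg1 (0.842, 0.625 to 1.13) had intervals that span 1. On the early side Cd27 was at 93.4 and 86.6 CPM, Emb (embigin) at 187 and 170.3, and Ltb (lymphotoxin beta) at 159 and 137, each with an interval that spans 1. Ltb is no NK marker in this tissue: T cells held 753 and 797 CPM and B cells 877 and 930.1.

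To describe the ends of the score, cells that differed by at least 2 UMIs as sequenced were set apart. There were 28 early cells in each library and 82 late cells in ALLO and 132 in SYN, with 28 and 63 between. These are ranges of a score, not types, and the genes of the score and gate were left out. Of 2939 measured genes, 171 (5.82%) were at least 1.5-fold higher in late cells in both libraries and 58 (1.97%) at least 1.5-fold higher in early cells, while 102 (3.47%) passed in opposite directions. The median gene stood 0.13 and 0.06 (log2) higher in late cells, and scaling to that median gave 126 late and 96 early genes. Early cells were deeper, with medians of 4166 and 3546.5 UMIs against 2796 and 2993. Ribosomal protein genes took 21.1% and 20.8% of their UMIs against 14.9% and 15.4% in late cells. The part of depth and of the ribosomal share in these counts was not tested.

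Late cells held more of the killing machinery. Gzma was at 13688 CPM in late against 2416 in early ALLO cells and at 12287 against 4551 in SYN, ratios of 5.67 and 2.70. Gzmb was 10.2-fold and 10.8-fold higher, at 720.0 against 70.3 CPM in ALLO and 529 against 48.9 in SYN. Prf1 was 4.36-fold and 2.06-fold higher. Cma1 was at 424 CPM in late ALLO cells with 0 UMIs in early ones. This was 16.1-fold higher with 3 counts as the floor per library, with a lower limit of 12.8. In SYN it had 181 against 2 UMIs (22.7-fold, 6.21 to 189). Cells between the ends held intermediate levels of these genes: Gzma was at 10242 and 8144 CPM, Gzmb at 421 and 226 and Cma1 at 211 and 197. Of 15 measured killing genes, 5 passed 1.5-fold on the late side in both libraries and none on the early side; Nkg7, a granule protein, was at ratios of 1.72 and 1.48.

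Chemokines split between the ends. Ccl3 was higher in late cells, at 732 against 219.6 CPM in ALLO and 568 against 245 in SYN, and Ccl4 was 6.13-fold and 1.83-fold higher. Both encode chemokines that attract other leukocytes. Xcl1, which recruits cross-presenting dendritic cells, was on the early side in both libraries, at 887 CPM in early against 313 in late ALLO cells and 509 against 155 in SYN, ratios of 0.352 (0.258 to 0.479) and 0.305 (0.208 to 0.449). Ifng (interferon gamma) gave no common direction, at 2.25 in ALLO and 0.783 in SYN.

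The late-maturation list that the score did not use lay on the late side: 13 of 16 measured genes passed on the late side and 1 on the early side, with median log2 ratios of 1.51 and 0.98 beside 0.13 and 0.06 for all genes. Ly6c2 (4.78-fold and 2.83-fold), Lgals1 (2.85-fold and 2.32-fold) and Klf2 (3.41-fold and 1.90-fold), a factor that holds lymphocytes in circulation, were among the late genes, and the exception was S100a4 (0.304 and 0.445). Of 10 measured genes of the early list, 6 passed on the early side and none on the late side. These were Tcf7 (0.405 and 0.335), Il7r (0.0468 and 0.0733), Cxcr3 (0.195 and 0.309), Thy1 (0.0218 and 0.240), Ctla2a and Xcl1. Killing genes and factors on this list are also counted in their own lists. The lineage factors on the late side were Irf8 (2.88 and 5.28), Tbx21 (1.62 and 1.90), Bhlhe40 (1.64 and 1.63) and Klf2. Eomes did not pass, at 1.87 and 1.21. As the cells were ordered by genes measured in these same cells, these ratios carry no test.

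By rank the early side was led by Cd160, an activating receptor, at 509 CPM in early against 82.3 in late ALLO cells and 313 against 56.6 in SYN, ratios of 0.162 (0.0920 to 0.273) and 0.181 (0.101 to 0.319). Cd7 followed at 2249 against 453 and 1605 against 431 CPM. Ly6e, Pim2 (a survival kinase), Serpina3g, Ctla2a and Pglyrp1 also passed 1.5-fold on the early side, while Shisa5 reached 0.684 and 0.637. Without cells that held a UMI of another lineage, Pglyrp1 turned to the late side in the library nearer to 0 (log2 0.045). Eef1a1, Tpt1 and Rack1, which include a translation factor and a ribosome-bound protein, were lower in late cells by less than 1.5-fold (0.771 and 0.789, 0.721 and 0.795, 0.675 and 0.781), beside the ribosomal shares given above. With cells thinned to 1000 UMIs, Rack1 turned to higher in late cells in the library nearer to 0 (log2 0.22). None of 13 MHC class I genes and none of 16 adaptor and kinase genes passed in either direction in both libraries.

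Some early genes also mark type 1 innate lymphoid cells (ILC1), close relatives of NK cells. Il7r had 20 of its 23 ALLO UMIs and 24 of its 36 SYN UMIs in the 28 early cells of each library. Of the other ILC1 genes, Cxcr6 had 6 and 1 UMIs in early cells, Itga1 3 and 0, Cd200r1 3 and 0 and Zfp683 5 and 0. All 11 genes of the list together gave 196 and 149.8 CPM in NK cells against 931 and 1132 in T cells. Their part in the early end was not tested. T cell markers leaned early at the median in both libraries, but not every gene did. The 3 measured genes of that list had median log2 ratios of -1.75 and -0.45, late over early. Of them 1 passed on the early side: Thy1, which is also on the early-maturation list. Lef1, with too few UMIs in ALLO to be measured, was at 26.4 (ALLO) and 19.6 CPM (SYN) in early cells. In late cells it was at 49.4 and 88.6 CPM. Thy1 was at 378 and 431 CPM in early cells, and Trbc2 at 193 and 117 CPM, with late over early ratios of 0.298 and 0.733, while Trbc1 was at 1.12 and 1.15. Trac had no UMI in early ALLO cells and 1 in SYN. The part of these transcripts in the early end was not tested either.

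**Figure D3:**
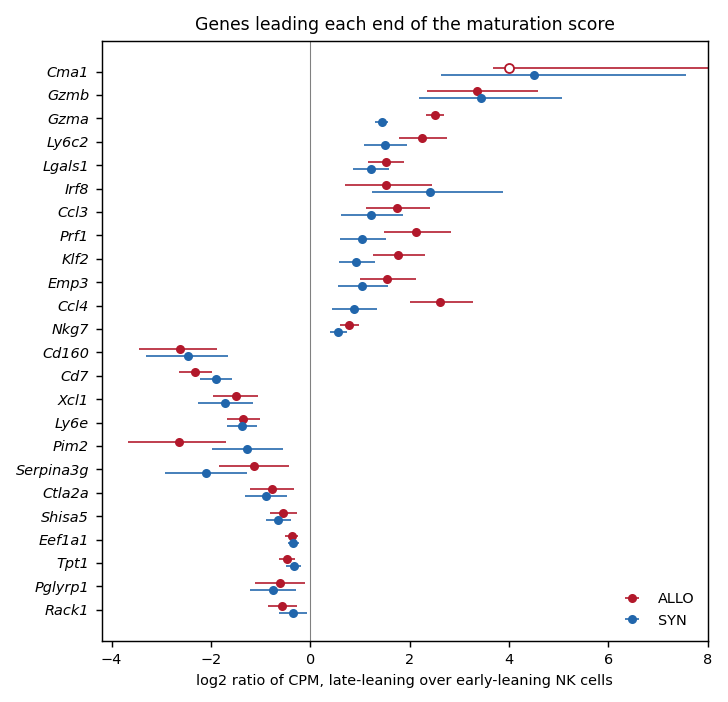
log2 ratio of CPM in late-leaning over early-leaning NK cells (x axis) for the 12 genes leading each end, in ALLO and SYN; bars are exact 95% intervals and the open circle is a lower bound against 0 UMIs. Late genes lie right of 0 in both libraries, led by Cma1, Gzmb and Gzma, and early genes left of 0, led by Cd160 and Cd7.

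The Ly49 repertoire was similar in both libraries. After thinning to 1000 UMIs, Klra8 was found in 57.0% of ALLO and 59.6% of SYN cells, Klra4 in 42.6% and 47.8%, Klra7 (Ly49G) in 28.4% and 32.5%, and Klra9 (Ly49I) in 27.5% and 25.7%. Klra3 (Ly49C) was found in 21.9% (15.3 to 29.7) and 16.6% (11.95 to 22.1), Klra1 (Ly49A) in 7.75% and 8.33%, and Klra6 (Ly49F) in 3.31% and 1.71%. Klra5 and Klra10 were found in at most 1.56% of cells, Klra17 in at most 0.127%, and Klra2 in 0 of 361. As sequenced, a cell held transcripts of 2.80 Ly49 genes on average in ALLO and 2.84 in SYN; 7.97% and 4.93% held none, and 8.70% and 7.62% held 5 or more. The family's summed UMIs (1416 in ALLO, 2485 in SYN) gave a ratio of 0.907 (0.849 to 0.968). That sum includes the gate genes Klra4 (359 and 681 UMIs) and Klra8 (470 and 880), so it partly describes the selection. A ratio of the family without these genes was not computed. The Ly49 genes are close paralogs whose reads the authors' counting could divide. Annotated protein-coding transcripts of Klra1, Klra3, Klra4, Klra6, Klra7, Klra8 and Klra9 were compared. No 90-base window in the first 300 bases of these was shared exactly with another of these genes. Klra2, Klra5, Klra10 and Klra17 were not compared, and inexact matches were not searched.

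Receptors for self were found in many cells. C57BL/6 mice carry MHC class I molecules that Ly49C, Ly49I and NKG2A recognise, and 76.1% (68.1 to 82.9) of ALLO and 70.0% (63.5 to 75.9) of SYN cells held a transcript of Klra3, Klra9 or Klrc1 as sequenced. In 1 random thinning to 1000 UMIs the shares were 55.1% (46.4 to 63.5) and 49.3% (42.6 to 56.1). Their levels differed little between the libraries: Klra3 was at 332 and 263 CPM (ratio 1.26, 1.01 to 1.58), Klra9 at 441 and 407 and Klrc1 at 416 and 322 (1.29, 1.05 to 1.58). Late cells held more Klra3 (1.53-fold and 1.80-fold) and Klra9 (3.85-fold and 1.51-fold). Klrc1 was lower in late cells, at 0.377 in ALLO and 0.726 in SYN.

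Klrc1 and Klra4 were unevenly combined in single cells. Klrc1 was found in 18 of 77 ALLO cells with Klra4 (23.4%, 14.5 to 34.4) and in 34 of 61 without it (55.7%, 42.4 to 68.5). In SYN it was found in 25 of 137 (18.2%, 12.2 to 25.7) and 48 of 86 (55.8%, 44.7 to 66.5). The median depth of the cells with and without Klra4 was 2801 and 3073 UMIs in ALLO and 2993 and 2881.5 in SYN. The same order held in late cells, with 21.3% against 37.1% in ALLO and 16.7% against 50.0% in SYN, and in early cells, with 5 of 10 against 15 of 18 in ALLO and 2 of 10 against 15 of 18 in SYN. Klra8, unlike Klrc1, was found more often with Klra4 than without it. It was in 90.9% and 60.7% of ALLO cells and in 82.5% and 70.9% of SYN cells. Klrc1 was also less frequent with Klra8, at 27.1% with it and 74.2% without in ALLO and 30.5% and 40.8% in SYN. With and without Klra7 it was at 28.8% and 45.8% in ALLO and 27.0% and 38.9% in SYN. With Klra3 it was more frequent (39.1% against 37.0%, and 37.9% against 30.6%), and Klra1 and Klra9 gave no common direction. Since Klra4 and Klra8 helped choose the cells, and a cell without them needed other gate genes, these shares describe the gated cells.

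Klra8 was the gate gene that differed most between libraries at the early end, with 36 UMIs in early ALLO cells and 132 in early SYN cells, or 316 and 1292 CPM, a ratio of 0.245 (0.164 to 0.356). In late cells it was at 1370 and 1336 CPM. Each early value rests on 28 cells. Klra8 also helped choose the cells and is named here for the size of its gap, so these values partly describe the selection. The interval does not allow for that choice, and a difference between the libraries was not tested.

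**Figure D4:**
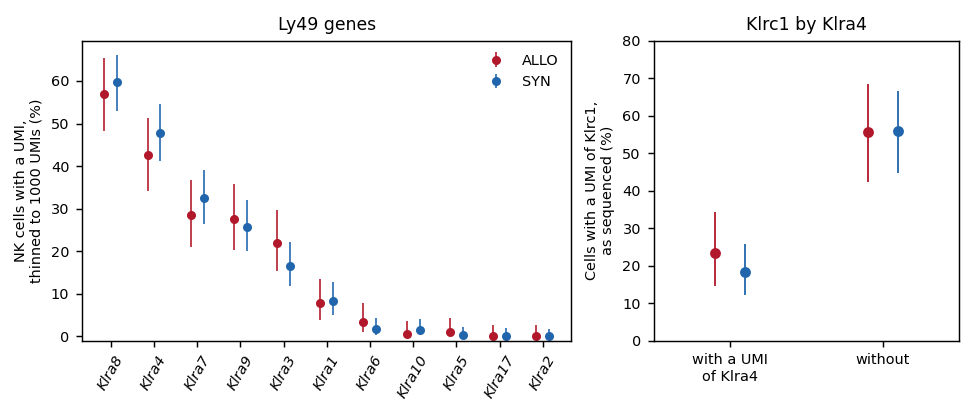
Left, share of NK cells with a UMI of each Ly49 gene after thinning to 1000 UMIs (y axis, percent), by library; right, share with a UMI of Klrc1 as sequenced, among cells with and without a UMI of Klra4. Bars are 95% binomial intervals, approximate at left, where they rest on expected cell counts, and exact at right. The 2 libraries overlap for the Ly49 genes. Klrc1 is found in 23.4% and 18.2% of cells with Klra4 against 55.7% and 55.8% without.

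Between the libraries, most genes of NK cells stayed within 1.5-fold. Of 6529 genes with at least 20 UMIs over both, 511 (7.83%) were at least 1.5-fold higher in ALLO and 719 (11%) at least 1.5-fold lower, with a median log2 ratio of -0.04. These fractions are the background for the gene lists that follow, and with few UMIs per gene many of the called genes have intervals that span 1. No list below is called different from the background.

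Xcl1 (ENSMUSG00000026573) was the effector gene with the clearest gap. It had 200 UMIs in 54 of 138 ALLO cells and 144 UMIs in 57 of 223 SYN cells, or 467 against 211 CPM, a ratio of 2.21 (1.77 to 2.76). The ratio was 2.16 (1.72 to 2.73) without the cell with the most UMIs in each library, 1.74 (1.24 to 2.48) within early cells and 2.02 (1.43 to 2.86) within late cells. In T cells it was 1.38 (1.17 to 1.63), at 43.4 and 31.4 CPM. Other cytokine genes with intervals above 1 were Ifng, at 292 and 204 CPM (1.43, 1.11 to 1.83), Ccl4, at 897 and 629.9 CPM (1.42, 1.24 to 1.64), and Ccl3, at 526 and 427 CPM (1.23, 1.03 to 1.47). Ccl5 stood on the other side at 0.909 (0.881 to 0.937), and Tnf had 3 and 18 UMIs (0.265, 0.05003 to 0.908). Of 9 measured cytokine and chemokine genes, Xcl1 passed 1.5-fold higher and Tnf lower; their median log2 ratio was 0.30, beside -0.04 for all genes and 0.45 for the list in T cells.

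Activating receptors outside the gate gave 2 of 12 higher and 2 lower, with a median log2 ratio of -0.13. Cd160 was at 206 (ALLO) and 109 CPM (SYN) (88 and 74 UMIs; 1.89, 1.37 to 2.61) and Tnfrsf9 (the costimulatory receptor 4-1BB) at 84.1 and 44.1 CPM (1.91, 1.14 to 3.21). Cd226 had 17 and 46 UMIs (0.588, 0.316 to 1.05), and Fcgr3, the Fc receptor of antibody-driven killing, 27 and 65 UMIs (0.661, 0.405 to 1.05). Klrc2 (NKG2C) was at 332 and 480 CPM, a ratio of 0.691 (0.563 to 0.844) short of the limit. Of 11 inhibitory receptors, Klra6 (17 and 12 UMIs, 2.25-fold) and Cd96 (30 and 31 UMIs, 1.54-fold) passed higher, and Lair1 (8 and 28 UMIs, 0.455) and Klrb1b (35 and 91 UMIs, 0.612) lower. On the list of 17 measured adaptor and kinase genes Plcg2 (1.59) and Ptpn6 (1.504) passed higher, while Tyrobp (0.995) and Fcer1g (0.971) had ratios near 1. Without the top cell of each library, Plcg2 was at 1.55 (0.990 to 2.43) and Ptpn6 at 1.51 (0.998 to 2.27), with intervals that span 1.

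Killing genes differed little. Of 18 measured, none passed higher and Serpinb6b passed lower with 86 and 214 UMIs (0.639, 0.492 to 0.825). Gzma was at 10117 and 10077 CPM (1.00, 0.966 to 1.04). Gzmb was at 498 and 380 CPM (1.31, 1.09 to 1.57), Prf1 at 624 and 772 CPM (0.808, 0.694 to 0.937) and Nkg7 at 3548 and 4197 CPM (0.846, 0.794 to 0.9001). None of 18 lineage factors passed; Klf2 was at 839 and 1164 CPM (0.720, 0.634 to 0.817). None of 17 late-maturation genes outside the score passed either, with a median log2 ratio of -0.04. Of 13 early-maturation genes Xcl1 and Cxcr3 passed higher and Lef1 lower. None of 13 MHC class I genes passed.

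**Figure D5:**
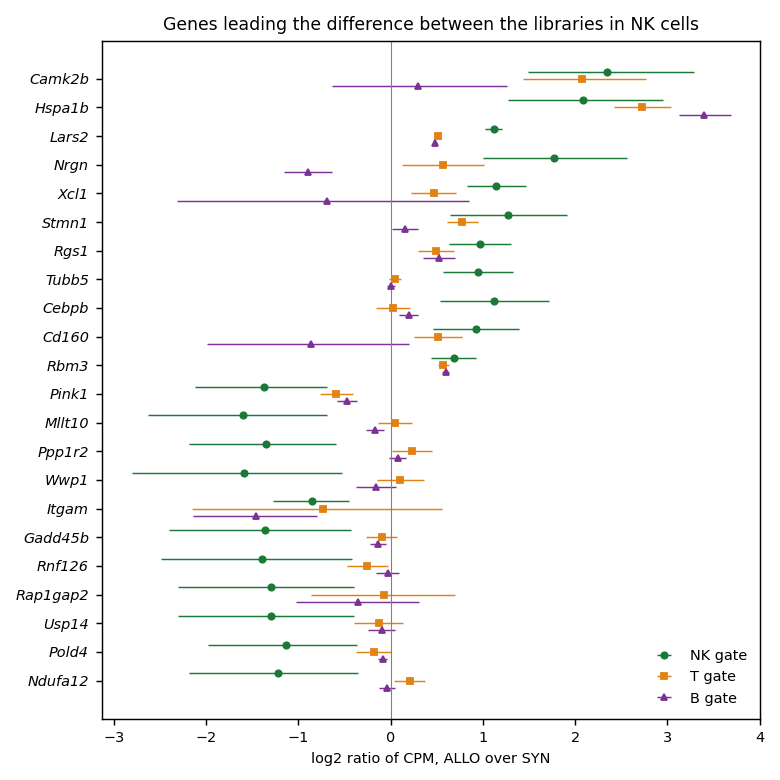
log2 ratio of CPM, ALLO over SYN (x axis), for 11 genes leading each side in NK cells, with the same ratio in T and B cells; bars are exact 95% intervals. The T cell ratios of the 11 higher genes run from 1.02 (Cebpb) to 6.59 (Hspa1b) and those of the 11 lower genes from 0.601 (Itgam) to 1.18 (Ppp1r2).

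Among the genes leading the higher side, several were higher in other cells too; the difference between cell types was not tested. Camk2b, a calmodulin-dependent kinase subunit, had 48 and 15 UMIs in NK cells (5.09, 2.80 to 9.79) and a ratio of 4.22 in T cells. The stress chaperone gene Hspa1b had 48 and 18 UMIs in 20 and 6 NK cells (4.24, 2.42 to 7.75), with ratios of 6.59 in T and 10.5 in B cells, and Hspa1a had 40 and 7 UMIs (9.09). Hsph1 passed as well, so 3 of 11 heat shock genes were higher and none lower, at a median log2 ratio of 0.07. Rbm3, a cold-induced RNA-binding protein, had nearly one ratio across cells, 1.603 in NK, 1.48 in T and 1.51 in B cells. Lars2, a mitochondrial tRNA synthetase, was at 5106 and 2355 CPM (2.17), but 1 ALLO cell held 596 of its 2186 UMIs, and without the top cell of each library the ratio was 1.73 (1.61 to 1.86), against 1.42 in T cells. Rgs1, a brake on chemokine receptor signalling, had 168 and 137 UMIs (1.95, 1.55 to 2.46) and 1.40 in T cells. Cebpb, a transcription factor gene, had 60 and 44 UMIs (2.17, 1.45 to 3.28) and a ratio of 1.02 in T cells.

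The higher side also held genes of dividing cells, which rested on single cells. Of 8 measured genes of this list 4 passed higher (Mki67, Top2a, Stmn1, Tubb5), at a median log2 ratio of 0.68. Of 97 ALLO UMIs of 10 cell-cycle genes, 91 were in 2 late-leaning cells. Without those and 1 SYN cell, 0 genes passed in either direction and the median was -0.17. Stmn1 alone had 36 of its 56 ALLO UMIs in 1 cell, and its ratio moved from 2.41 to 0.923 without it, while Tubb5 moved from 1.92 to 1.36, Mki67 from 4.32 to 2.03 and Top2a from 4.77 to 1.94.

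On the lower side Itgam (ENSMUSG00000030786) led the genes with an NK role. Its ratio was also below 1 in T cells (8 and 17 UMIs, 0.601, 0.224 to 1.47). In B cells it was 0.364 (28 and 68 UMIs, 0.226 to 0.573). Jak1, the kinase of interleukin-2 and interleukin-15 receptors, was at 867 and 1248 CPM (0.694, 0.613 to 0.785), within 1.5-fold, against 0.885 in T and 0.877 in B cells. Among its list of cytokine receptors and signal genes Stat5a passed lower of 21 measured (6 and 22 UMIs), with Stat4 at 0.743 (0.590 to 0.932) and Ifngr1 at 0.779 (0.666 to 0.910). Pink1, a mitochondrial quality kinase, had 22 and 91 UMIs (0.385, 0.230 to 0.618) and was also lower in T (0.665) and B cells (0.721). Mllt10, Ppp1r2, Wwp1, Gadd45b, Rnf126, Rap1gap2, Usp14, Pold4 and Ndufa12 had between 9 and 18 ALLO UMIs and ratios from 0.329 to 0.455. Of the trafficking genes Cxcr4 (11 and 41 UMIs, 0.427) and the exit receptor S1pr1 (16 and 43 UMIs, 0.592) passed lower and Cxcr3 (38 and 38 UMIs, 1.59) higher.

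Smaller pathway lists showed single members past the limit. Of 10 measured type I interferon-induced genes 8 had ratios above 1, beside 2992 of all 6529 measured genes. Bst2 (24 and 16 UMIs, 2.39) passed. Their median log2 ratio was 0.31, beside 0.42 for the list in T cells, and their summed UMIs gave a ratio of 1.32 (1.15 to 1.53). Of 12 interferon gamma-induced genes Gbp2 passed lower (4 and 21 UMIs). The survival factor Bcl2 had 108 UMIs in each library, 252 against 159 CPM (1.59, 1.21 to 2.10), and Bcl2a1b passed with it, while Bcl2l1, Bbc3 and Bad passed lower with 4 to 7 ALLO UMIs. Of 9 glucocorticoid and FoxO response genes, Ddit4 (19 and 63 UMIs, 0.480) and Sgk1 (24 and 65 UMIs, 0.587) passed lower; their T cell ratios were 0.624 and 0.787. Of 22 immediate early genes Nr4a3 (2.09) and Myc (1.74) passed higher and Egr1 (0.610) lower, and Junb was at 1.01.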

How the data were processed

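The authors deposited raw UMI counts per gene and barcode for each library, on mm10 and with Cell Ranger 6.0.2 and FastQC named in the submitters' processing notes. Which gene annotation they used is not given in the sources used here. Each barcode held at least 500 UMIs. Values were computed with Python 3.11.15, numpy 2.4.6, scipy 1.17.1, pandas 2.3.3 and scanpy 1.11.5, and drawn with matplotlib 3.10.9; the scripts were tested on simulated data.

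Counts were summed over the gated cells of a library and divided by their total. A ratio of UMIs has an exact conditional 95% interval, a share a Clopper-Pearson interval. The same formulas were applied to ratios of cell shares and to expected cell counts after thinning, where they are approximate. A gene was measured from 20 UMIs over the compared classes, a zero was set to a floor of 3 counts per library, and 1.5-fold is a size, not a test. Thinned shares are exact expectations over all thinnings to 1000 UMIs. B cells had at least 2 UMIs of Cd79a. Scrublet's automatic threshold marked 0 and 2 barcodes, so a score of 0.25, chosen after seeing the data, marked 265 and 136 barcodes, 2 and 1 of them NK cells; they were kept. Named genes are the gate and maturation genes, 12 per side of each comparison, ranked by the interval bound nearest to 1 (at least 50 UMIs, without predicted, ribosomal, mitochondrial and antigen receptor genes), up to 4 per list of 31 lists, and the Ly49 family; others named were chosen after their values were seen. A gene that the rule names is not reported here. The members and lists were chosen with earlier results of these data known. Start regions are RefSeq (GRCm38.p6), transcripts GENCODE vM21.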

Additional observations from a re-analysis of the deposited data

Results flagged for a closer look

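Nrgn, a calmodulin-binding protein gene, had 47 UMIs in ALLO and 22 in SYN NK cells, a ratio of 3.40 (2.01 to 5.92), while in B cells the ratio was on the other side of 1 (0.538, 0.448 to 0.645); in T cells it was 1.48. The phosphatase inhibitor gene Ppp1r2 had 18 and 73 UMIs in NK cells, a ratio of 0.392 (0.220 to 0.664), against 1.18 (1.01 to 1.37) in T cells. Ndufa12, of respiratory complex I, had 14 and 52 UMIs, a ratio of 0.428 (0.219 to 0.784), against 1.15 (1.03 to 1.29) in T cells. These genes stand out because the cell types lay on opposite sides of 1, as NK and T cells also did for S1pr5, given above. The difference between cell types was not tested.

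Barcodes below the depth limit, outside the NK gate, also held NK transcripts. Of barcodes from 500 to below 1000 UMIs, 39 of 958 in ALLO (4.07%, 2.91 to 5.52) and 66 of 6271 in SYN (1.05%, 0.815 to 1.34) met the gate's gene limits, a ratio of 3.87 (2.53 to 5.83). The ribosomal share of those barcodes moved with this: its median was 3.75% from 500 to below 750 UMIs and 5.79% from 750 to below 1000 in ALLO, against 9.18% and 9.31% in SYN, and 16.1% and 16.3% in the gated NK cells. Its part in the ratio was not tested.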

How the results depend on the processing

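The share of kept barcodes that were NK cells had an ALLO to SYN ratio of 0.995 with at least 500 UMIs per barcode, against 0.708 as reported; no other cell limit tried moved either NK share beyond its counting interval. Counts of genes past 1.5-fold followed the gene minimum, the fold and the depth. In the order higher in ALLO, lower in ALLO, late side and early side, they were 120, 213, 47 and 16 with at least 50 UMIs per gene, 2026, 1628, 566 and 554 with no minimum, 127, 198, 49 and 13 at a fold of 2, and 317, 457, 69 and 26 with cells thinned to 1000 UMIs. NK over T gave 1162 higher genes when thinned, 813 higher and 491 lower at a fold of 2. Scaling to the median ratio gave 96 early genes and 1080 genes higher in NK than T cells. Single random thinnings, added after seeing the data, gave early-leaning ratios from 0.912 to 1.56 and late-leaning ratios from 0.741 to 1.03 over 6 draws; draw 2 turned the early ratio (0.912) and draw 5 the late one (1.03). Of the values of single genes, 686 kept their direction within counting error, 54 moved beyond it and 4 turned: Stmn1 (ALLO over SYN, log2 -0.085 when thinned and -0.12 without its top cells), Rack1 (late over early, 0.22 when thinned) and Pglyrp1 (late over early, 0.045 without cells holding a UMI of another lineage). No paired analysis was possible because each group has 1 library and the groups share 1 replicate number. Depth limits genes under about 50 UMIs most.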

Other observations

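Besides Trbc1 and Trbc2, NK cells held transcripts of Trdc, the delta chain constant gene of the T cell receptor, although the gate allowed no Cd3 UMI. Trdc was at 60.7 CPM in NK cells of ALLO and 60.2 in those of SYN, above the 23.5 and 13.6 of T cells. Trac was at 2.34 and 2.94 CPM against 234 and 243. These genes were looked at after their values were seen.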
